A study of Mus musculus with 12 samples.

Results

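The RecQ family of DNA helicases was followed through a knockdown of the splicing factor gene Sap30bp and its rescue in mouse neuroblastoma cells. Its 5 members, Recql, Recql4, Recql5, Blm and Wrn, were taken by gene name, as 5 of 54393 genes in the expression table and as 285 of 401633 entries in the splicing table. The family was selected on measured values: 4 introns of Recql4 were retained more after knockdown than in control. The values of that contrast therefore describe the choice. They are given with no p, and counts of calls in it stand beside the share over all events as a description, not as a test of the family. The libraries were made from polyA RNA of N2a Flp-In rtTA cells, a mouse neuroblastoma line with a single integration site and a doxycycline-responsive activator. Each of 2 derived lines carried at that site a FLAG-tagged, siRNA-resistant Sap30bp cDNA that doxycycline induces. In the mEx3 line this cDNA is without exon 3 of Sap30bp, and in the pEx3 line it includes that exon. In each line, rescue cells received an siRNA against Sap30bp with doxycycline, knockdown cells received that siRNA alone, and control cells received a pool of non-targeting siRNAs. This gives 6 groups with 2 biological replicates each, harvested 72 hours after transfection from wells combined within a condition. No group had the non-targeting siRNA with doxycycline, and effects of the drug and of the isoform it induces cannot be told apart. Isoform and line cannot be told apart either.

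RecQ helicases unwind DNA in the 3′ to 5′ direction with energy from ATP, and they act on stalled replication forks, recombination intermediates and unusual DNA structures. BLM works with topoisomerase III alpha to take apart joined DNA molecules, WRN carries an exonuclease beside its helicase, RECQL4 takes part in the start of DNA replication, and RECQL5 binds RNA polymerase II. In people, loss of BLM, WRN and RECQL4 underlies Bloom, Werner and Rothmund-Thomson syndromes. SAP30BP acts with the splicing factor RBM17 in the removal of short introns.

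Sap30bp stood at 196.5 RPKM after rescue, 21.7 after knockdown and 40.0 in control in the mEx3 line, and at 141.3, 18.6 and 33.6 RPKM in the same groups of the pEx3 line, in the authors' deposited table. Its log2 fold changes in that table were -0.63 (FDR 0.06739) and -0.60 (FDR 0.06839) for knockdown over control, which miss an FDR of 0.05, and 2.05 (FDR 6.86e-19) and 1.62 (FDR 7.13e-11) for rescue over knockdown, smaller in size than the RPKM ratios. Rbm17 lay between 102.2 and 117.1 RPKM over the 6 groups of that table. Of 15 markers of adrenergic neuroblastoma, 11 were at 1 RPKM or more in all groups, and Th was under 1 RPKM in all. Of 10 fibroblast markers, 8 were under 1 RPKM in all groups and Col3a1 was listed at 0. The summed level of that fibroblast list was 31.6 to 40.9 RPKM in the mEx3 line and 109.7 to 178.4 RPKM in the pEx3 line. With 8 members under 1 RPKM, that sum rests mainly on the other listed genes, Pdgfra and Fn1, and not on the list as a whole. Its part in differences between the lines was not tested. The summed level of 10 glial and immune markers was 9.1 to 11.7 RPKM. No read numbers come with the percentages or RPKM, and the depth of the libraries is therefore unknown. Replicates of a group differed by a median of 2.05 to 4.21 percentage points over the tested events of the 5 genes.

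The 5 genes differ widely in how they are cut into introns. Recql4 is compact, with 20 introns in the splicing table, of which 12 are shorter than 100 nt, and with a median intron of 85.5 nt. The median intron was 284 nt in Recql5, 959.5 nt in Recql, 2338 nt in Blm and 3568.5 nt in Wrn. Outside Recql4, introns under 100 nt numbered 1 each in Recql, Recql5 and Wrn and 0 in Blm. Introns are numbered along the first annotated transcript of each gene (21 introns in Recql4 and 33 in Wrn), matched by the lengths of the intron and its neighbouring exons, which left 1 of 102 introns unplaced. No exon of another gene in that annotation falls in Recql4 introns 9 to 16 or in Wrn intron 24.

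The exon junctions are shown first for the 5 introns that had a value in all libraries and were called for knockdown against control, since these are the sites where exons were left unjoined. Sequences are from GENCODE transcripts on GRCm38, minus strand, 5′ to 3′. Each line has the last 20 bases of the exon before the intron and the first 20 bases of the exon after it. Capitals mark the last 3 bases of the exon before and the first base of the exon after.
Recql4 junction 9 (chr15:76707252-76707271 joined to chr15:76707154-76707173): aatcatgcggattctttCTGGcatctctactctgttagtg
Recql4 junction 11 (chr15:76706683-76706702 joined to chr15:76706586-76706605): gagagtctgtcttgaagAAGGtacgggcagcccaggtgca
Recql4 junction 12 (chr15:76706417-76706436 joined to chr15:76706319-76706338): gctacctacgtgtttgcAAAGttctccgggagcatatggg
Recql4 junction 13 (chr15:76706159-76706178 joined to chr15:76706068-76706087): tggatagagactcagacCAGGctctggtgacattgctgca
Wrn junction 24 (chr8:33268896-33268915 joined to chr8:33268801-33268820): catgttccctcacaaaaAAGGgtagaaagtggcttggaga

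The exons between Recql4 introns 9 and 14 encode part of the helicase core, and 3 of them are shown because they hold codons of helicase motifs. Capitals mark the codons of motif I (Walker A, which binds ATP) in exon 10, of motif II (Walker B, which takes part in ATP hydrolysis) in exon 12, and of motif III in exon 13.
Recql4 exon 10 (chr15:76707037-76707173): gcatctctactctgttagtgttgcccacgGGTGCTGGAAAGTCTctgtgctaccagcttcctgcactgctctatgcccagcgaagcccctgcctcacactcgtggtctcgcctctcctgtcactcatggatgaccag
Recql4 exon 12 (chr15:76706417-76706605): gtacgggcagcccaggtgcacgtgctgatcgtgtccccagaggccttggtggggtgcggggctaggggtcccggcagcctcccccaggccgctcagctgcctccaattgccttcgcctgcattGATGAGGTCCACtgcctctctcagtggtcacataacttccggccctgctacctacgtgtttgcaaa
Recql4 exon 13 (chr15:76706159-76706338): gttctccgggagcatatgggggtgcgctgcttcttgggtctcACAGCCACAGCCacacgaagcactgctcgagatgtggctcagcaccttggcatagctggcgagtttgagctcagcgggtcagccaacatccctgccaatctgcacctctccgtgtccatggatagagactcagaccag

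Retention of Recql4 was higher after knockdown in a run of neighbouring short introns in the middle of the gene. Intron 9, of 78 nt (mm9 chr15:76537604-76537681), was retained in 18.84% and 10.91% of transcripts in the rescue libraries, 23.90% and 38.46% in the knockdown libraries and 8.33% and 6.52% in the control libraries of the mEx3 line. Retention in the pEx3 line was 8.57% and 14.29% after rescue, 31.03% and 23.46% after knockdown and 2.44% and 7.83% in control. In both lines the knockdown libraries of intron 9 were the highest and overlapped neither rescue nor control.

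Intron 11, of 77 nt (mm9 chr15:76537036-76537112), lies directly before the exon that carries motif II. Its retention was 11.43% and 18.84% after rescue, 19.59% and 44.00% after knockdown and 6.98% and 5.26% in control in the mEx3 line. For the pEx3 line intron 11 was at 25.00% and 36.11% after rescue, 42.86% and 34.48% after knockdown and 10.14% and 6.67% in control. Rescue and knockdown libraries of intron 11 overlapped in the pEx3 line and did not in the mEx3 line.

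Intron 12, of 78 nt (mm9 chr15:76536769-76536846), separates the exons with motifs II and III. It was retained in 18.18% and 20.39% of transcripts after rescue, 25.00% and 41.82% after knockdown and 4.50% and 12.73% in control in the mEx3 line. The pEx3 values of intron 12 were 22.77% and 38.27% after rescue, 44.26% and 43.24% after knockdown and 16.67% and 10.64% in control. Knockdown was above rescue, and rescue above control, in every library of both lines.

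Intron 13, of 71 nt (mm9 chr15:76536518-76536588), is the shortest intron of the gene and follows the exon with motif III. Its retention in the mEx3 line was 11.48% and 13.33% after rescue, 21.61% and 37.25% after knockdown and 9.63% and 11.11% in control. Cells of the pEx3 line had 17.89% and 20% after rescue, 35.80% and 34.38% after knockdown and 1.45% and 7.91% in control. The libraries again fell in the order knockdown, rescue, control without overlap in either line.

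Intron 10, of 270 nt (mm9 chr15:76537197-76537466), lies inside this run, and 7 of its 12 libraries had a value, so it was not tested. In the mEx3 line it was retained in 52.94% of transcripts in the rescue library with a value, 47.92% and 75.00% in the knockdown libraries and 32.47% in the control library with a value. Single libraries of the pEx3 line gave 60.98% after rescue, 73.77% after knockdown and 40.00% in control. Its control level was the highest of introns 9 to 13 in both lines, and in the mEx3 line a knockdown library lay below the rescue library.

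**Figure D1:**
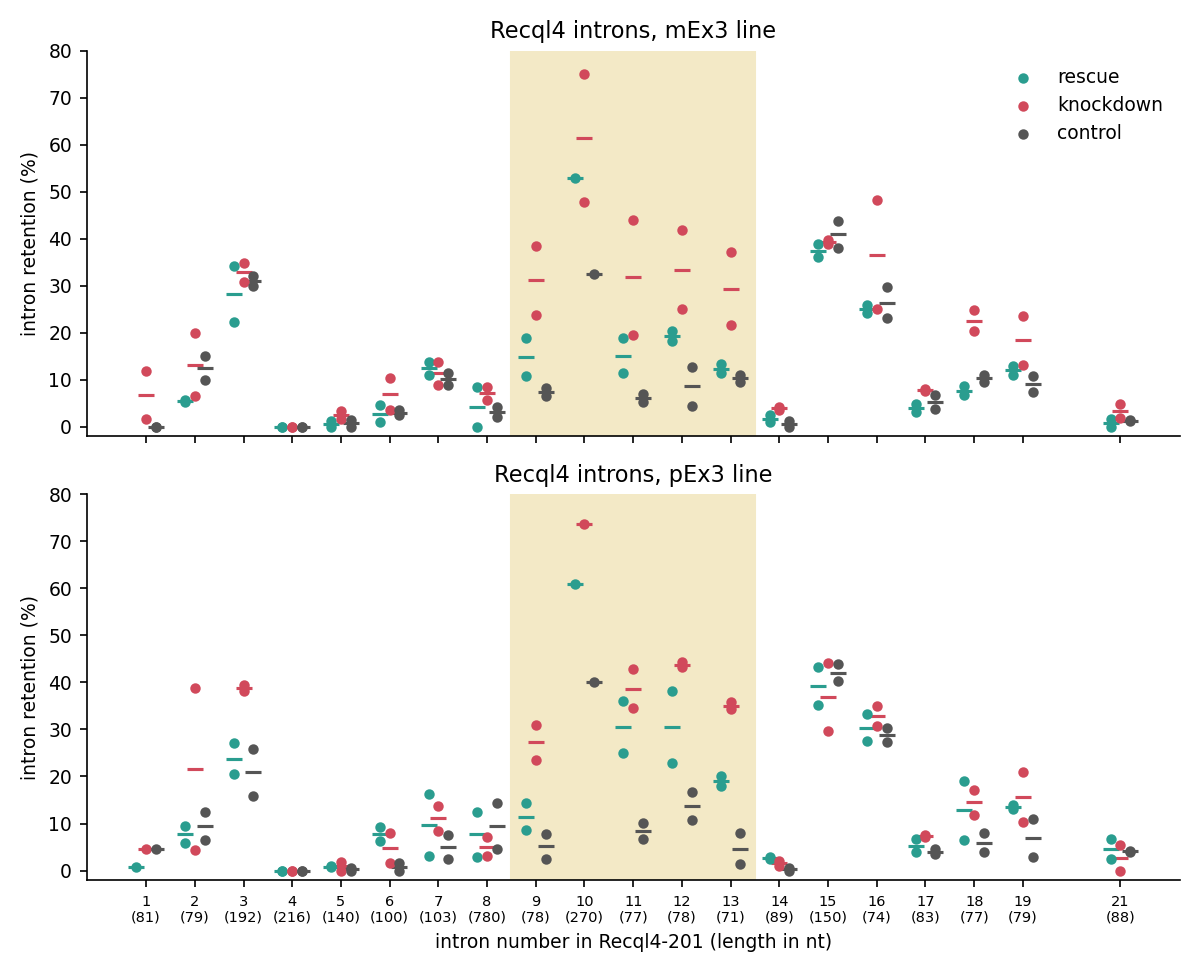
Retention (percent, vertical axis) of each Recql4 intron in the splicing table (horizontal axis, intron number with length in nt) in the mEx3 line (top) and the pEx3 line (bottom). Dots are libraries, bars are group means, and the shaded run is introns 9 to 13, where knockdown stands above control in both lines, while intron 15 is high in all groups.

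Averaged over both lines, knockdown minus control was 27.97 percentage points (SE 5.05) for Recql4 intron 11, 27.44 (SE 4.56) for intron 12, 24.73 (SE 3.46) for intron 13 and 22.93 (SE 3.69) for intron 9. Of 50 RecQ events with all 12 values and a mean of 2% to 98%, 5 were called at a limma adjusted p under 0.05 and at least 15 points, all with higher retention. Over all 28980 events tested, 1.48% were called, and as this contrast chose the family, nothing is read from the difference in shares. The filter left out most of the family's entries, with 67 below 2% and 96 above 98%. As a description by line, 0 of these 50 were called in the mEx3 line (background 0.0207%) and 1, intron 13, in the pEx3 line (background 0.338%). Of the 5 called for both lines together, 3 were called without control replicate 1 of the mEx3 line, and 3 without control replicate 1 of the pEx3 line. In the mEx3 line 4 were called when knockdown replicate 1 was left out. That replicate had lower retention than replicate 2 in 5 of 5 called introns. Intron 11 lost its call over both lines without any of the 4 control libraries, intron 12 without control replicate 1 of the mEx3 line and intron 9 without control replicate 1 of the pEx3 line. In the pEx3 line the call of intron 13 was lost in 9 of 12 fits that left out a library. With no filter on the mean, 0 RecQ events were called over both lines or in the pEx3 line.

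**Figure D2:**
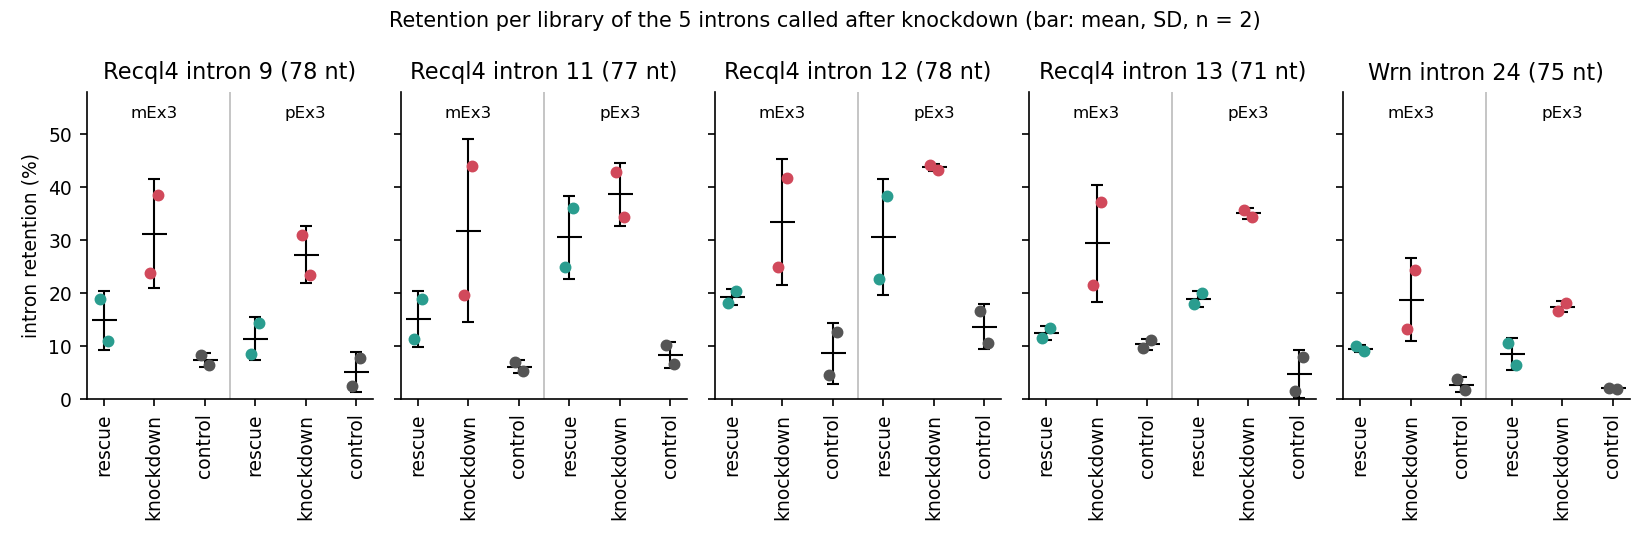
Retention (percent, vertical axis) per library of the 4 Recql4 introns and the Wrn intron called for knockdown minus control, by group in each line. Dots are libraries and bars give the mean and SD (n = 2), and knockdown lies above control in each of the 5 introns in both lines.

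The other Recql4 introns with a value in all libraries had smaller differences. Introns 1 to 8 with a value in all libraries had differences of -0.20 to 9.94 points between knockdown and control, and 0 of them had both knockdown libraries above both controls in both lines. Introns 14 to 21 had differences of -3.42 to 10.40 points, and 3 of 7, introns 14, 17 and 18, had both knockdown libraries above both controls in both lines. Of these 7 introns 6 are shorter than 100 nt. Intron 14 was below the 2% filter on the mean. The share of all tested introns with knockdown above control in this way was not counted, so nothing is read from the 0 and the 3. Intron 18, of 77 nt, was the nearest below the 15-point threshold at 10.40 points (SE 2.93), followed by intron 3 (192 nt) at 9.94 (SE 3.73), intron 19 (79 nt) at 8.97 (SE 3.23) and intron 16 (74 nt) at 7.14 (SE 4.66). Just inside the threshold was the Wrn intron described further on.

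Introns 15 and 16 are shown because both were retained in many transcripts of every group and both are kept in an annotated transcript. They were chosen after their values were seen. Retention of intron 15, of 150 nt (mm9 chr15:76535874-76536023), was 38.81% and 36.05% after rescue, 39.74% and 39.00% after knockdown and 43.84% and 38.14% in control in the mEx3 line. Intron 15 in the pEx3 line was at 43.36% and 35.19% after rescue, 29.63% and 44.06% after knockdown and 40.30% and 43.84% in control. Knockdown overlapped control for intron 15 in both lines. Its GRCm38 sequence from the transcript that keeps it (minus strand, capitals for the first and last 2 bases) is a multiple of 3 in length and has 0 stop codons in the reading frame of the exon before it.
Recql4 intron 15 (chr15:76705444-76705593): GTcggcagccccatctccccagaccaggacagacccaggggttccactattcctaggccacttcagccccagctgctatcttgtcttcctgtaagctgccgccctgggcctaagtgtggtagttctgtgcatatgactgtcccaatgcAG

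Intron 16, of 74 nt (mm9 chr15:76535547-76535620), is as short as introns 9, 11, 12 and 13. Its retention was 25.87% and 24.22% after rescue, 25.00% and 48.19% after knockdown and 23.08% and 29.76% in control in the mEx3 line. The pEx3 line had 27.45% and 33.33% after rescue, 30.69% and 35.09% after knockdown and 27.27% and 30.30% in control. A single knockdown library at 48.19% stood above the rest. Its length is not a multiple of 3, and it has 2 stop codons in frame, the first at base 54 of the intron.
Recql4 intron 16 (chr15:76705117-76705190, capitals as for intron 15): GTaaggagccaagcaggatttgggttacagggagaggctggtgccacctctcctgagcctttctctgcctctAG

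Exon 13 of Recql4, whose sequence with motif III stands above, was also skipped in part of the transcripts after knockdown. It has 180 nt, a multiple of 3, and the introns on both sides fall between codons. Its inclusion was 100% and 100% after rescue, 96.92% and 91.02% after knockdown and 100% and 100% in control in the mEx3 line. Exon 13 inclusion in the pEx3 line was 100% and 100% after rescue, 88.51% and 97.00% after knockdown and 100% and 100% in control. All 4 knockdown libraries were under 100% and all 8 others were at 100%. The exon was picked after its values were seen, and its difference of less than 15 points was not called.

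WRN differs from the other RecQ proteins in having an exonuclease, and Wrn is the longest-introned gene of the family, with a single intron under 100 nt. That intron, intron 24 of 75 nt (mm9 chr8:34379293-34379367), was retained in 10.00% and 9.09% of transcripts after rescue, 13.18% and 24.32% after knockdown and 3.70% and 1.75% in control in the mEx3 line. In the pEx3 line it was retained in 10.64% and 6.38% after rescue, 16.67% and 18.18% after knockdown and 2.04% and 1.96% in control. The libraries fell in the order knockdown, rescue, control without overlap in both lines. Knockdown minus control was 15.73 points over both lines (SE 2.45), and without knockdown replicate 2 of the mEx3 line it was 12.94 points, under the threshold. The other 27 introns of Wrn averaged 0.52%, 0.66% and 0.75% retention after rescue, after knockdown and in control of the mEx3 line, and 0.62%, 0.77% and 0.90% in the same groups of the pEx3 line. The length of intron 24 is a multiple of 3. The Wrn event with the next largest difference was an alternative 3′ splice site listed with 11 nt (mm9 chr8:34453449-34453597), at 4.66 points (SE 2.09). Its use was 91.89% and 97.92% after rescue, 94.03% and 97.37% after knockdown and 92.86% and 86.67% in control in the mEx3 line, against 91.43% and 94.55%, 97.37% and 94.59%, and 89.80% and 95.38% in the same groups of the pEx3 line. Its groups overlapped in the pEx3 line.

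Recql, Recql5 and Blm had 0 of 17 tested events called. Recql had the highest RPKM of the family in every group. Its only intron under 100 nt, intron 9 of 89 nt, was retained in 0.81% of transcripts or fewer in all libraries. The Recql intron with the largest difference was intron 10, of 468 nt, at 2.54 points (SE 1.99). It was retained in 8.63% and 9.96% after rescue, 6.38% and 12.70% after knockdown and 7.83% and 7.65% in control in the mEx3 line, and in 8.13% and 11.82%, 9.65% and 11.91%, and 6.16% and 8.82% in the same groups of the pEx3 line. Recql intron 8, of 843 nt, was at 2.13% and 2.56% after rescue, 2.45% and 0.56% after knockdown and 0.82% and 3.55% in control in the mEx3 line, and at 2.38% and 2.70%, 1.90% and 0.51%, and 3.74% and 4.72% in the pEx3 line, with a difference of -1.85 points (SE 0.87). The groups of Recql introns 8 and 10 overlapped in the mEx3 line.

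Recql5, whose gene is the next neighbour of Sap30bp on chromosome 11 and lies on the opposite strand (RefSeq GRCm38.p6), had a 37 nt exon at mm9 chr11:115757413-115757449 as its largest difference. Inclusion of this exon was 94.33% and 83.69% after rescue, 82.71% and 90.67% after knockdown and 100% and 92.45% in control in the mEx3 line. In the pEx3 line it was 88.35% and 96.25% after rescue, 85.77% and 95.33% after knockdown and 100% and 97.03% in control. Inclusion was lower in knockdown than in control without overlap in both lines, by 8.75 points on average (SE 3.23), and was not called. Recql5 intron 13, of 284 nt, was at 10.00% and 4.62% after rescue, 1.37% and 3.12% after knockdown and 3.03% and 14.89% in control in the mEx3 line, and at 4.35% and 6.12%, 11.11% and 2.70%, and 5.00% and 11.11% in the pEx3 line. Its difference of -3.93 points (SE 2.83) came with overlapping libraries in both lines. The 16 Blm introns with a value in all libraries reached 5.88% at most, and their differences lay between -0.54 and 0.61 points. Of the 2 Blm events tested, intron 21 (3376 nt) was at 1.94% and 2.35% after rescue, 2.75% and 3.40% after knockdown and 5.88% and 1.45% in control in the mEx3 line, and at 2.99% and 4.97%, 0.72% and 2.70%, and 1.68% and 1.09% in the pEx3 line. The other, an alternative 5′ splice site of 88 nt, was used in 0 to 4.91% of transcripts over the 12 libraries, with a difference of 0.43 points (SE 1.07).

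By length, the 11 tested RecQ introns under 100 nt all had a higher mean after knockdown, with a median difference of 10.4 points, and 5 were called. Over all 1958 tested introns of that length the median was 3.52 points and 149, or 7.61%, were called higher. Of the 11, 10 belong to Recql4 and share a transcript, so they are not independent of each other. From 100 nt and under 200 nt 0 of 5 RecQ introns were called, beside 2.33% of all tested introns of that length. From 200 nt and under 1000 nt the count was 0 of 9, beside 0.791%, and from 1000 nt 0 of 7, beside 0.127%. As 4 of the 11 are the introns that chose the family, the comparison with all short introns is set in part by that choice and nothing is read from it. Among the other Recql4 introns under 100 nt, introns 18, 19, 16 and 2 had differences of 10.40, 8.97, 7.14 and 6.5 points. Introns 14, 17 and 21, of 89, 83 and 88 nt, had 2.31, 2.94 and 0.29 points, of which 14 was below the 2% filter. In the mEx3 line the 11 Recql4 introns under 100 nt with all 12 values averaged 10.79% retention after rescue, 21.08% after knockdown and 8.92% in control. In the pEx3 line these averages were 15.30%, 21.90% and 8.31%. The 7 longer Recql4 introns with all 12 values averaged 12.25%, 14.33% and 12.74%, and 12.72%, 13.94% and 11.22%, in the same groups. Intron 10, of 270 nt, lacks values in some libraries and is in neither this average nor the counts by length. From the libraries with a value, its knockdown minus control was 28.99 points in the mEx3 line and 33.77 in the pEx3 line.

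**Figure D3:**
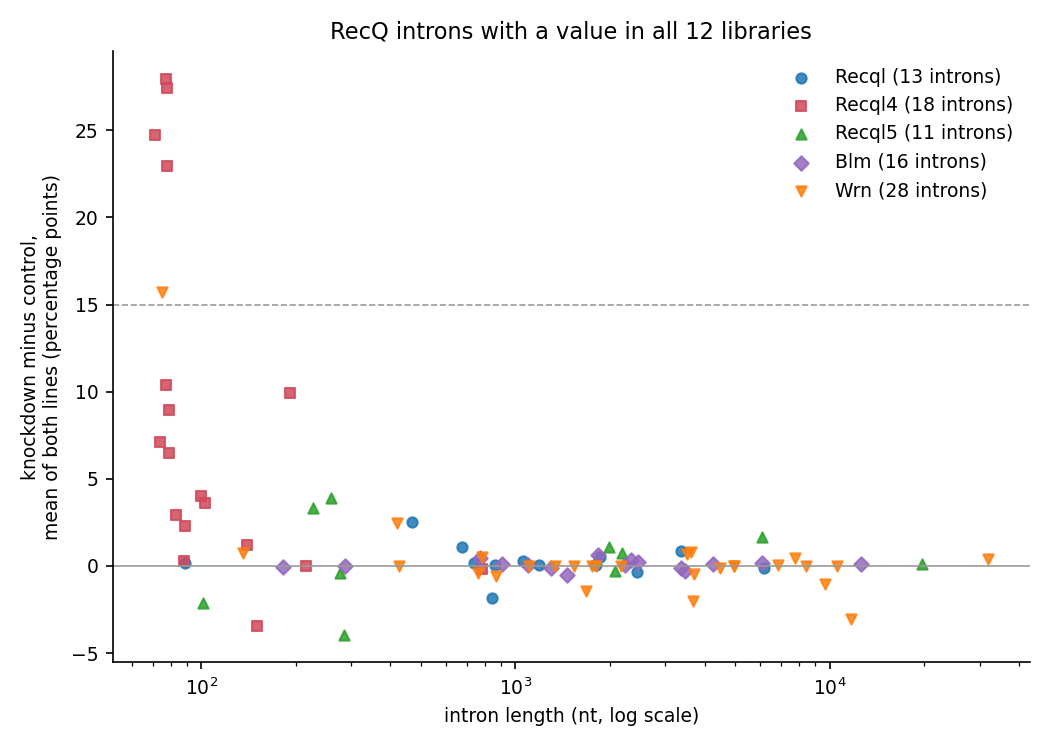
Knockdown minus control retention (percentage points, mean of both lines, vertical axis) against intron length (nt, log scale) for RecQ introns with a value in all 12 libraries, by gene. The points above the dashed line at 15 points are 4 Recql4 introns and 1 Wrn intron of 71 to 78 nt, and introns of 1000 nt and over lie near 0.

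After rescue, mean retention of the 5 called introns lay between knockdown and control in both lines. These introns were chosen on the same knockdown and control libraries, so the position of rescue between them is a description with no test. All 5 lay above both control libraries after rescue in each line, and rescue lay below both knockdown libraries for 5 in the mEx3 line and 4 in the pEx3 line. The share of all called introns in this order was not counted, so nothing is read from these counts. As a share of the knockdown change, where 100% is a return to control, rescue removed 68.7% over the 4 Recql4 introns in the mEx3 line (SD 2.7 between rescue libraries, n = 2) and 47.2% in the pEx3 line (SD 21.6, n = 2). The libraries behind the second value gave 62.5% and 32.0%. By intron the shares were 68.6% in the mEx3 and 71.5% in the pEx3 line for intron 9, 64.9% and 26.8% for intron 11, 57.0% and 44.0% for intron 12, and 89.3% and 53.1% for intron 13. For Wrn intron 24 they were 57.4% and 57.8%. The mEx3 share moved to 49.3% without its knockdown replicate 2 and to 77.4% without its knockdown replicate 1. Rescue against knockdown called 0 of 50 RecQ events in either line, with 6 and 7 at an unadjusted p under 0.05, beside 8.57% and 6.84% of all events at that p. The background of calls was 0.00345% in the mEx3 line and 0.0% in the pEx3 line. Rescue against control called 0 in either line, with 0 and 4 at an unadjusted p under 0.05 (5.58% and 8.39% of all events), beside backgrounds of calls of 0.00345% and 0.0%.

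Differences between the lines were tested with limma over all events. The rescue level uses no knockdown or control library, whereas the differences of the knockdown effect, of the rescue effect and of the control level share libraries with the contrast that chose the family. The rescue effect of the mEx3 line minus that of the pEx3 line was -8.55 points for intron 11 (95% interval -30.77 to 13.68, adjusted p = 0.976), -0.90 for intron 12 (-20.97 to 19.18, adjusted p = 0.999), -0.88 for intron 13 (-16.13 to 14.37, adjusted p = 0.998) and -0.49 for intron 9 (-16.76 to 15.78, adjusted p = 0.999). For Wrn intron 24 it was -0.29 points (-11.10 to 10.52, adjusted p = 0.999). With 2 libraries a group, these intervals hold differences larger than 10 points in either direction. Of the 50 RecQ events, 0 were called for the rescue effect, with a lowest adjusted p of 0.933 and 2 at an unadjusted p under 0.05 (5.27% of all events), beside a background of 0.00345%. The rescue level itself, mEx3 minus pEx3, called 0 (background 0.00345%, lowest adjusted p of 0.651, 1 at an unadjusted p under 0.05, beside 7.09% of all events), and the largest absolute difference was that of Recql4 intron 11 at -15.42 points (95% interval -31.13 to 0.29, adjusted p = 0.718). The knockdown effect called 0 of 50 between the lines (background 0.0%, lowest adjusted p of 1, 0 at an unadjusted p under 0.05, beside 3.2% of all events), and so did the control level (background 0.0%, lowest adjusted p of 1, 0 at an unadjusted p under 0.05, beside 4.24%).

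The authors' deposited table of splicing events lists 5 RecQ events, all of them Recql4 introns 9 to 13. Its calls of knockdown against control cover 4 of the 285 RecQ entries in the mEx3 line, without intron 11, and 5 in the pEx3 line. The shares called of all 401633 entries were 0.201% and 0.241%, and as this contrast chose the family, nothing is read from them. The shares that follow are also of all entries. For rescue against control the authors' deposited table calls 0 in the mEx3 line and 2, introns 10 and 11, in the pEx3 line, beside 0.0625% and 0.104%. For rescue against knockdown it calls intron 13 in both lines, by -16.15 and -15.73 points, beside 0.101% and 0.0378%. Between the lines it calls 0 of the 285 RecQ entries in control, after knockdown or after rescue, beside 0.0535%, 0.0503% and 0.0612%. Wrn intron 24 is not in that table.

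The introns of other genes whose retention over the 12 libraries was nearest to the mean of the 4 called Recql4 introns were also short. By root-mean-square distance they were a 69 nt intron of Ano8 at 4.15 percentage points, an 86 nt intron of Hmha1 at 4.20, a 77 nt intron of Hirip3 at 4.40, an 87 nt intron of Fancg at 4.51 and a 77 nt intron of Zdhhc8 at 4.69. The Recql4 mean was 15.42%, 31.45% and 8.13% after rescue, after knockdown and in control of the mEx3 line, and 22.86%, 36.19% and 7.97% in the pEx3 line. The Ano8 intron was at 10.10%, 28.48% and 7.26%, and at 24.26%, 34.36% and 8.38%, in the same groups. The Fancg intron, in a gene of the Fanconi anaemia DNA repair complex, was at 11.84%, 25.62% and 6.88%, and at 22.74%, 32.40% and 7.14%.

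Recql had the highest level per length of the 5 mRNAs in every group and Recql5 the lowest, in the authors' RPKM with 1 value per group. Fewer cells with a transcript and less RNA per cell cannot be told apart in these bulk libraries. Recql4 was at 12.77 RPKM after rescue, 17.36 after knockdown and 11.02 in control in the mEx3 line, and at 12.56, 13.03 and 8.77 RPKM in the pEx3 line. The authors' deposited table gives Recql4 a log2 fold change for knockdown over control of 0.61 and 0.43 in these lines, and for rescue over knockdown of -0.45 (FDR 0.8307) and -0.04 (FDR 1). So the Recql4 value was highest after knockdown in both lines. Recql was at 75.84, 85.10 and 69.95 RPKM after rescue, after knockdown and in control of the mEx3 line, and at 93.33, 85.18 and 71.57 RPKM in the pEx3 line. Blm was at 30.74, 30.16 and 34.91 RPKM, and at 37.61, 35.30 and 45.38 RPKM, so its control value was the highest in both lines. Wrn was at 11.41, 12.70 and 11.95 RPKM, and at 12.75, 11.08 and 13.57 RPKM. Recql5 was lowest in every group, at 9.61, 8.57 and 8.55 RPKM, and at 8.18, 8.11 and 7.90 RPKM.

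**Figure D4:**
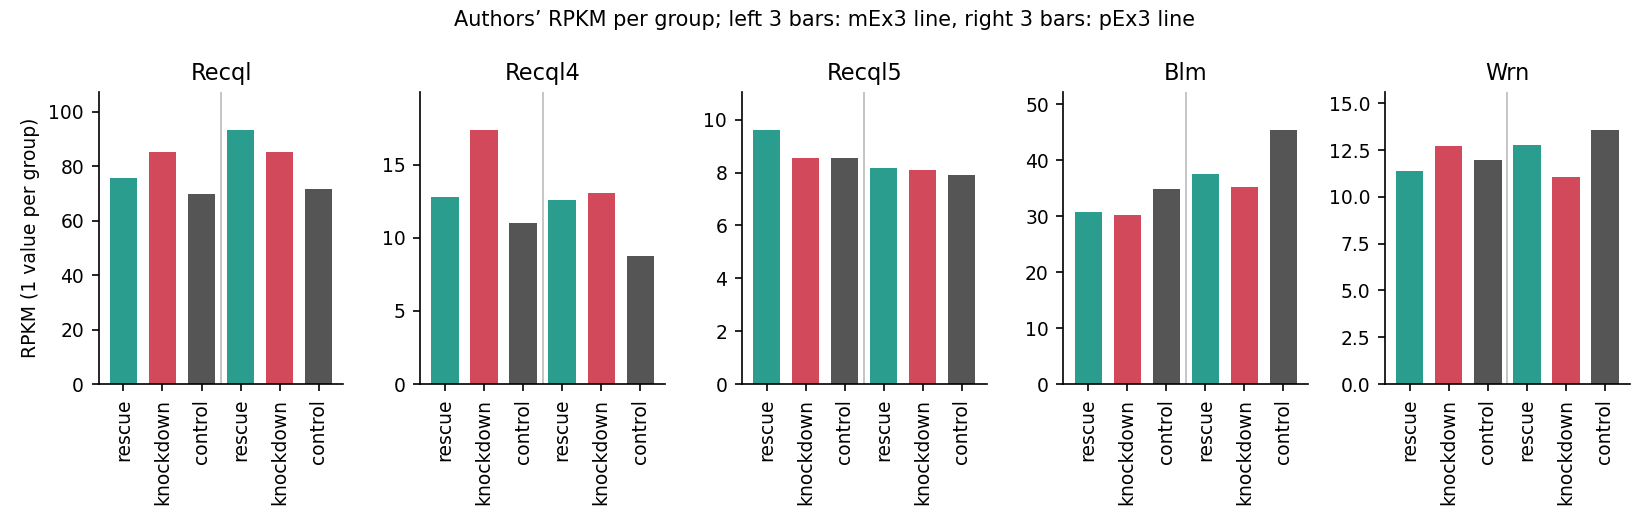
RPKM of each RecQ gene (vertical axis, 1 deposited value per group, scale differs by gene) by group, mEx3 line left and pEx3 line right in each panel. Recql4 is highest after knockdown in both lines, and Blm is highest in control.

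Over 9 authors' comparisons, 0 of 45 member and comparison pairs passed an FDR of 0.05. Beside this, the authors' FDR called 2.26% of all tested genes for knockdown over control in the mEx3 line and 3.68% in the pEx3 line. For rescue over knockdown the shares were 0.0232% and 0.00464%, and for rescue over control 0.924% and 2.27%. In the authors' deposited line comparisons, which run pEx3 over mEx3, the shares were 3.73% in control, 2.9% after knockdown and 3.29% after rescue. Recql4 had log2 fold changes of -0.35 (FDR 0.6523), -0.52 (FDR 0.2713) and -0.11 (FDR 0.9943) in those comparisons. For Recql, the authors' deposited log2 fold change of rescue over knockdown in the mEx3 line was 0.08 (FDR 1), whereas its RPKM values give -0.16 with a pseudocount of 1.

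Genes that work with the RecQ helicases were counted from lists of partners. Of the tested introns, 0 of 31 in BLM partners, 0 of 34 in homologous recombination genes, 0 of 51 in RECQL4 partners at replication origins and 0 of 23 in WRN partners were called higher after knockdown, beside 1.49% of all tested introns. In other DNA repair and replication helicases 3 of 70 were called, 2 in Ercc2, which encodes the XPD helicase of transcription factor TFIIH, and 1 in Rtel1, which encodes a telomere helicase. They were named after their values were seen. In the order given, 6, 2, 6 and 0 of the tested introns of the first lists were under 100 nt. Of the 70 tested introns of the other helicases, 10 were. Calls were more frequent at that length, at 7.61% of all tested introns under 100 nt, so nothing is read from these counts. The 80 nt Ercc2 intron averaged 16.89%, 52.36% and 13.76% retention after rescue, after knockdown and in control of the mEx3 line, and 25.98%, 43.25% and 13.26% in the pEx3 line. The 84 nt Ercc2 intron averaged 10.16%, 32.02% and 5.78%, and 17.43%, 35.30% and 2.64%, and the 92 nt Rtel1 intron 5.73%, 14.30% and 2.61%, and 10.53%, 20.93% and 1.90%.

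In expression, 1 of 12 tested BLM partners, 1 of 17 homologous recombination genes and 1 of 19 other helicases passed the authors' FDR. Each was lower after knockdown in the pEx3 line, where 3.68% of all tested genes passed in either direction. Nothing is read from these counts, and the genes were named after their values were seen. Mus81, a nuclease subunit that cuts joined DNA molecules, had an authors' deposited log2 fold change of -0.82 (FDR 0.01031), although its values were 13.30 RPKM after knockdown and 16.23 in control. Rad51c, a gene of homologous recombination, fell by 0.72 on the log2 scale in the authors' deposited table (FDR 0.02644), at 7.91 RPKM after knockdown and 13.01 in control. Helb, a DNA helicase that limits end resection, fell by 0.75 in that table (FDR 0.0361), at 4.96 RPKM after knockdown and 8.56 in control. In the mEx3 line the authors' deposited values were -0.44 (FDR 0.3935) for Mus81, -0.63 (FDR 0.09099) for Rad51c and -0.60 (FDR 0.1648) for Helb. The RECQL4 partner list, with MCM and GINS subunits among its 22 genes, had 0 genes past the FDR in either direction. Of its genes, 19 had a positive log2 fold change for knockdown over control in the mEx3 line and 14 in the pEx3 line, beside 49.9% of all tested genes in each. The medians were 0.26 and 0.07, beside 0.00 over all genes. For rescue over control 19 and 17 were positive, with medians of 0.24 and 0.11, beside 45.9% and 49.2% of all tested genes. The medians of the list for rescue over knockdown were -0.03 and 0.02.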

How the data were processed

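PolyA RNA of 12 libraries was measured. Per the labels' protocols, stranded libraries used 1000 ng of RNA and inserts averaging 540 nt, and doxycycline was added 24 hours after transfection. The deposited inclusion table (mm9) gives percent inclusion or retention per event and library, a vast-tools table by its deposited name, with event lengths in nt. The vast-tools version and coverage rule, as well as the authors' call rule, were not given in the sources used here. Expression, in the authors' deposited table, is given as RPKM (1 value per group), log2 fold changes and p-values with FDR. Salmon 0.14.1 and edgeR are named in the submitters' processing notes. The deposited table of splicing events gives the authors' differences in points (a score) and calls.

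From these, limma 3.58.1 (R 4.3.3) modelled the percentages as 6 group means, with trended and robust empirical Bayes variance and Benjamini-Hochberg adjustment, over 28980 events with all 12 values and a mean of 2% to 98%. First-site entries of alternative splice sites (37194) were not tested. A call needed an adjusted p under 0.05 and 15 points. The code was tested on simulated data. Intervals are 95% intervals of limma. Named events were those called, the 2 largest differences of each gene, and events with missing values whose groups differ by 15 points. Members, lists and rules were chosen with earlier results of these data known. Replicates are called biological in the labels, with no statement on separate cultures, so p-values measure the spread between these libraries. The unused per-sample columns numbered 0. Alternatives were another scale, other filters, another variance model, a replicate block and leaving out each library.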

Additional observations from a re-analysis of the deposited data

How the results depend on the processing

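For knockdown against control over both lines, the 5 called RecQ events were 0 without the filter on the mean, where 55 events were called in all, and 3 to 6 when each library was left out in turn. In the mEx3 line the count of 0 became 0 to 4 with a library left out. In the pEx3 line the count of 1 was 2 on the logit scale, 2 with means between 5% and 95%, 0 without the filter on the mean and 0 to 4 with a library left out. The cause was not tested. The share removed by rescue in the mEx3 line was 55.0% on the logit scale and 49.3% to 77.4% with a library left out. In the pEx3 line it was 32.0% to 62.5% with a library left out. The pEx3 share on the logit scale is not given here, so the lines are not compared on that scale. The difference of the rescue effect between the lines turned positive in some fits with a library left out, with ranges of -20.75 to 3.66 points for Recql4 intron 11, -9.31 to 7.51 for intron 12, -8.70 to 6.94 for intron 13, -7.77 to 6.79 for intron 9 and -5.86 to 5.28 for Wrn intron 24. The same range for the difference of the knockdown effect was -16.80 to 7.62 points for Recql4 intron 11, -13.71 to 3.11 for intron 12, -19.17 to -3.53 for intron 13, -5.64 to 8.93 for intron 9 and -4.97 to 6.17 for Wrn intron 24. For the rescue level between the lines it was -20.98 to -9.86 points for Recql4 intron 11, -18.98 to -3.48 for intron 12, -7.60 to -5.48 for intron 13, -0.52 to 7.41 for intron 9 and -1.10 to 3.16 for Wrn intron 24. Counts of called RecQ events between the lines stayed at 0 under all settings run. Replicate numbers are shared between groups, but with 2 replicates they show no pairing by design. Deviations of same-numbered libraries correlated at r = 0.149 to 0.31 within a line and 0.0417 to 0.221 between lines, across events, which are not independent. With the replicate block, 5 RecQ events were called over both lines, 0 in the mEx3 line and 1 in the pEx3 line, and 0 in each other comparison. Depth is unknown, and no counting error could be given.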
